A study of Arabidopsis thaliana with 42 samples.

Results

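Mock-infiltrated leaves of the Arabidopsis double mutant that the labels spell chp60g sard1 were set against mock-infiltrated wild type leaves, with 3 libraries in each group. The 6 libraries were chosen by genotype and treatment alone and belong to a series of 42 libraries from 7 genotypes and 2 treatments. All plants were of the ecotype Col-0 and were 30 days old. The labelled conditions were 22 °C, 75% humidity and 12 h of light for every group. Leaves 6 to 8 received 5 mM magnesium sulfate, and 2 leaves made 1 sample 24 h later. The groups used here are chp60g sard1 mock, the triple mutant cbp60a cbp60g sard1 mock, sid2 mock, cbp60a mock, cml46 cml47 mock, wrky70 mock and wild type mock, with chp60g sard1 and wild type leaves given Pseudomonas syringae pv. maculicola ES4326 (Pma) as a further pair. The label chp60g was read as CBP60g. The sources used here do not name the mutant alleles. Each of 3 independent experiments gave 1 library to every group, so the libraries were paired by experiment. Whole leaves were sampled, so that fewer cells of a type and less RNA per cell cannot be told apart.

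CBP60g and SARD1 are closely related plant transcription factors of the CALMODULIN-BINDING PROTEIN 60 (CBP60) family. After infection they bind the promoter of ICS1, the isochorismate synthase that makes most of the salicylic acid of an infected leaf, and the double mutant is known for weak salicylic acid accumulation and high susceptibility. CBP60a, a calmodulin-binding relative, is known as a negative regulator of immunity, and sid2 is a mutant of ICS1 itself. The comparison of mock leaves asks what the loss of both factors does in leaves that received no bacteria.

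The 300 bases before the annotated start of WRKY70, CNGC3 and ICS1 are shown because WRKY70 and CNGC3 belong to the genes that differed between the groups and ICS1 is the textbook target of both factors. Sequences are from RefSeq, build TAIR10.1, 5′ to 3′ on the gene's strand, with capitals for matches on either strand to TTGAC, the core of the W box bound by WRKY factors, and to GAAATTT, the core reported for SARD1 and CBP60g.
WRKY70, chr3:20910624-20910923, minus strand: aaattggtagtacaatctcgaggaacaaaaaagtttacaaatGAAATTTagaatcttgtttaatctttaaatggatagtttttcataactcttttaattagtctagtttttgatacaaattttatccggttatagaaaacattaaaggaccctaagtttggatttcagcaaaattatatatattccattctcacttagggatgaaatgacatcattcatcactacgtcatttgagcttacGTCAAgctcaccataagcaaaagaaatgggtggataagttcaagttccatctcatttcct
CNGC3, chr2:19057699-19057998, plus strand: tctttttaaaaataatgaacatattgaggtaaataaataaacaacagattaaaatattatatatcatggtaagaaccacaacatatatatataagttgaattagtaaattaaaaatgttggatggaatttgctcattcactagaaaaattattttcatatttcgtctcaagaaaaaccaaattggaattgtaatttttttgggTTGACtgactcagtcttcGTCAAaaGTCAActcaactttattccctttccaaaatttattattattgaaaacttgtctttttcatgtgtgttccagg
ICS1, chr1:28069995-28070294, plus strand: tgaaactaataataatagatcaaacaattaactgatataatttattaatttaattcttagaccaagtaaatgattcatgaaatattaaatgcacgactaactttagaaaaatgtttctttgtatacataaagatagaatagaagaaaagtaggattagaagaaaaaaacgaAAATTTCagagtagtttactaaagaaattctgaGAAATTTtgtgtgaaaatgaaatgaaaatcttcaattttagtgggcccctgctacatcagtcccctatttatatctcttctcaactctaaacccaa
The window of WRKY70 held 1 match to each motif, that of CNGC3 held 3 matches to TTGAC and that of ICS1 held 2 matches to GAAATTT. Among the 69 genes that were higher in chp60g sard1 mock leaves, 45 windows held TTGAC (65.2%) and 13 held GAAATTT (18.8%). The shares were 50.3% and 15.3% of the 15075 windows of tested protein-coding genes on the nuclear chromosomes. A GAAATTT followed by C also reads as a match on the other strand and was then counted at both positions.

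The 6 libraries held 1115498 to 2129360 counts each, and 17428 to 18516 loci had a count. The share of plastid counts was 4.83% to 7.09%. A principal component analysis of the 6 libraries placed the experiments along the first component (35.7% of the variance) and, along the second (25%), put the chp60g sard1 libraries at -28.1 to -18.7 and the wild type libraries at 9.57 to 50.3. The wild type library of experiment 3 was the one at 50.3 and stood apart from the other wild type libraries. Levels below are CPM, counts scaled to library size, here to the size adjusted by the trimmed mean of M values, in the order of experiments 1, 2 and 3. Fold changes are log2 of chp60g sard1 over wild type from edgeR's quasi-likelihood test with the experiment as a block, and adjusted p is after Benjamini and Hochberg over 15161 genes. Smart-3SEQ reads mark the 3′ ends of transcripts, so that levels of different genes are compared without a length term.

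Both mutated genes were low in all mock leaves. CBP60G had 7.32, 8.48 and 7.86 CPM in chp60g sard1 leaves, against 13.1, 2.19 and 1.88 CPM in wild type leaves, and 1 wild type library was above and the other 2 were below all chp60g sard1 libraries (log2 fold change 0.42, SE 0.55, adjusted p = 0.95). SARD1 had 4.18, 10.6 and 9.82 CPM in chp60g sard1 leaves, against 4.57, 2.93 and 3.76 CPM in wild type leaves, with overlapping groups (log2 fold change 1.12, SE 0.75, adjusted p = 0.83). The 3′ tags at these levels are no check of the mutant label in mock leaves. After Pma, CBP60G averaged 39.3 ± 11.3 CPM in chp60g sard1 and 255 ± 18.1 CPM in wild type (SD, n = 3 each; edgeR log2 fold change -2.72, SE 0.42, adjusted p = 4.33e-05), and SARD1 averaged 10.9 ± 9.13 CPM in chp60g sard1 and 249.9 ± 30.8 CPM in wild type (SD, n = 3 each; edgeR log2 fold change -4.62, SE 0.60, adjusted p = 3.98e-06). Both targeted genes were thus lower in the Pma libraries that carry the mutant label. SARD1 (chromosome 1, start 27744790, end 27749248, minus strand) overlaps its neighbour AT1G73790, and the sources used here do not say whether counting used strand. Of the other CBP60 genes, CBP60A, CBP60B, CBP60C, CBP60D and CBP60F were tested, with fold changes of 0.35, 0.58, 0.11, 0.86 and -0.34 on the log2 scale, and none passed (lowest adjusted p = 0.33, CBP60B). CBP60E was at 0.982 to 1.41 CPM in chp60g sard1 leaves and 1.46 to 1.96 CPM in wild type leaves and was too low to be tested.

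Of 15161 genes, 70 passed (0.462%), of which 69 were higher in chp60g sard1 mock leaves (0.455%) and 1 was lower. The 69 rose by 0.81 to 4.2 on the log2 scale with a median of 1.79, and 66 of them by 2-fold or more, while the median over all tested genes was -0.01. In all 69 every chp60g sard1 library lay above every wild type library, against 7.37% of all tested genes. Since all 69 share it, a lack of overlap does not set any of the 69 apart from the rest of the 69. The summed level of the 69 was 5499.6 to 7345 CPM in the chp60g sard1 libraries and 1764 to 2129 CPM in the wild type libraries. Without the experiment block 10 genes passed, and with the block in a fit of the 6 libraries alone 895 passed (524 higher, 371 lower). The count rested on single libraries. It was 0 without experiment 2 or 3 and without the chp60g sard1 library of experiment 3. It was also 0 without the wild type library of experiment 1 or of experiment 3. In these fits 752 to 1098 genes, of 15274 to 15498 tested, had an unadjusted p under 0.05. With no difference at all, a share of 0.05 of the tested genes is expected under that cut, here and in later such counts. The count of genes that passed was 4 without experiment 1. It was 27 without the chp60g sard1 library of experiment 1 and 19 without the wild type library of experiment 2.

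**Figure D1:**
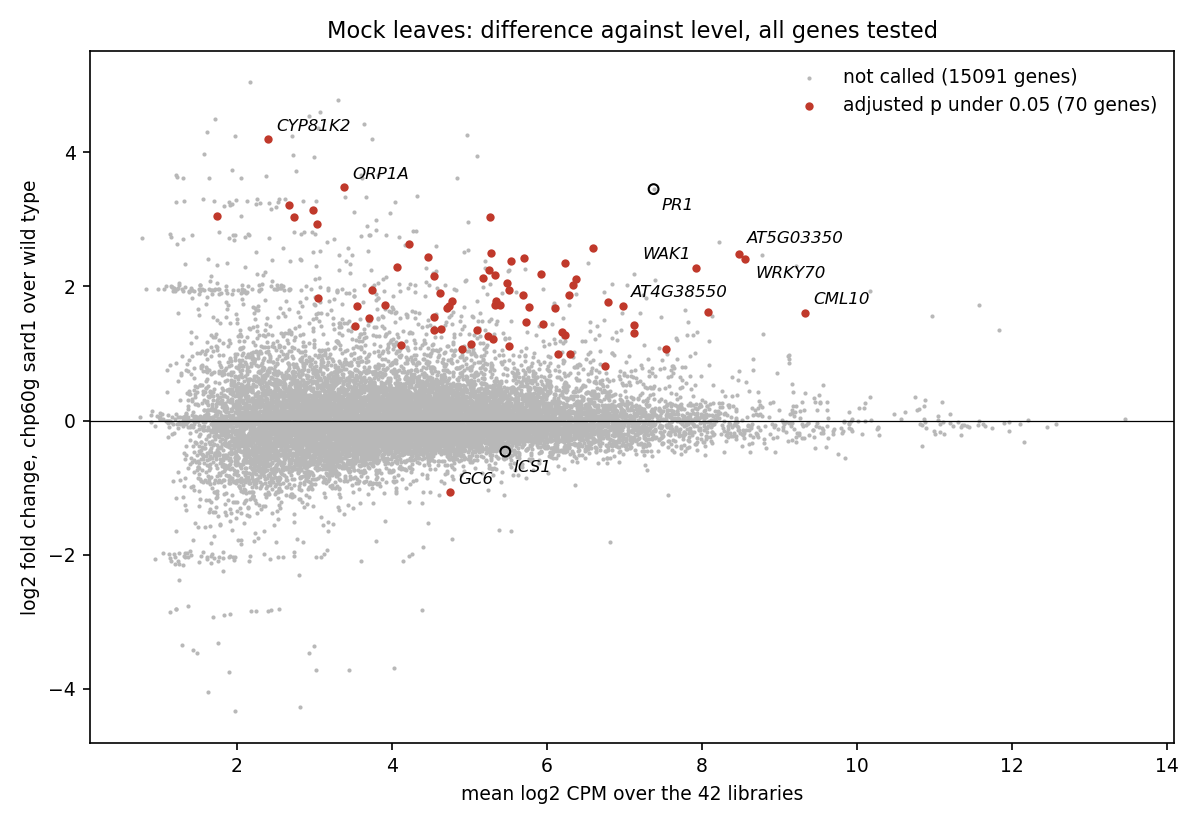
Log2 fold change of chp60g sard1 over wild type in mock leaves (vertical axis) against the mean log2 CPM over the 42 libraries (horizontal axis), 1 point a gene. Red points are the 70 genes with an adjusted p under 0.05, of which GC6 alone lies below 0. Open circles mark PR1 and ICS1, which did not pass. Bands of grey points at low levels are genes with few counts in the 6 libraries.

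Regulators of transcription were among the genes that rose. WRKY70 and its close relative WRKY54, which act together in salicylic acid signalling, were both higher. WRKY70 had 841, 312 and 519.7 CPM in chp60g sard1 leaves, against 174, 70.9 and 79.9 CPM in wild type leaves (log2 fold change 2.41, SE 0.52, adjusted p = 0.025). WRKY54 had 122, 70.0 and 107 CPM in chp60g sard1 leaves, against 33.9, 11.7 and 16.9 CPM in wild type leaves (log2 fold change 2.39, SE 0.45, adjusted p = 0.013). In both genes every chp60g sard1 library lay above every wild type library, and experiment 1 was the highest within each group. WRKY25 had 40.8, 17.7 and 33.4 CPM in chp60g sard1 leaves, against 12.4, 8.05 and 5.64 CPM in wild type leaves (log2 fold change 1.79, SE 0.38, adjusted p = 0.025), and WRKY58 rose by 2.93 (adjusted p = 0.042), with 8.05 CPM on average in chp60g sard1 leaves. SIB1, a VQ-motif protein that binds WRKY33, had 72.2, 50.2 and 95.3 CPM in chp60g sard1 leaves, against 15.7, 13.2 and 11.3 CPM in wild type leaves, with no overlap between the groups (log2 fold change 2.43, SE 0.42, adjusted p = 0.0066). The NAC factor NAC004 rose by 3.05 (adjusted p = 0.039). Of 37 tested genes annotated as WRKY DNA-binding proteins, 4 were among the 69 and 34 had a log2 fold change above 0, with a median of 0.77. The annotation words used for this and the next counts were chosen after the genes were seen.

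Of the annotation classes counted, protein kinases held most members, with 12 of the 69 (17.4%) against 878 of 15161 tested genes (5.79%). The class as a whole had a median log2 fold change of 0.06. WAK1, a kinase anchored in the cell wall, had 251, 168 and 309 CPM in chp60g sard1 leaves, against 53.5, 37.3 and 60.2 CPM in wild type leaves (log2 fold change 2.28, SE 0.52, adjusted p = 0.038). The S-domain receptor kinase RK3 had 58.6, 36.1 and 55.0 CPM in chp60g sard1 leaves, against 10.4, 11.7 and 8.46 CPM in wild type leaves (log2 fold change 2.24, SE 0.41, adjusted p = 0.011). The leucine-rich repeat receptor kinase AT4G08850 had 67.5, 60.8 and 69.8 CPM in chp60g sard1 leaves, against 19.6, 21.2 and 12.2 CPM in wild type leaves (log2 fold change 1.94, SE 0.37, adjusted p = 0.014). In these 3 genes the lowest chp60g sard1 library was above the highest wild type library. EP1, annotated as related to receptor-like kinases, rose by 2.02 (adjusted p = 0.015), the receptor lectin kinase RLK by 1.43 (adjusted p = 0.015) and the mitogen-activated kinase kinase kinase MEKK3 by 1.68 (adjusted p = 0.011). The calcium-dependent kinase CPK5, which acts in pattern-triggered immunity, rose by 0.99 (adjusted p = 0.042), and LYM2, a LysM protein that binds chitin, by 1.69 (adjusted p = 0.019). LYM2 overlaps IDH2, a subunit of mitochondrial isocitrate dehydrogenase, which also passed, at 1.07.

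Of 13 tested genes annotated as cyclic nucleotide-gated channels, 2 rose, 7 had a log2 fold change above 0 and the median was 0.08. The channel gene CNGC3 had 71.7, 75.6 and 97.3 CPM in chp60g sard1 leaves, against 13.7, 14.6 and 19.7 CPM in wild type leaves (log2 fold change 2.35, SE 0.46, adjusted p = 0.015). Its neighbour CNGC11 had 85.3, 104 and 82.5 CPM in chp60g sard1 leaves, against 18.9, 29.99 and 16.9 CPM in wild type leaves (log2 fold change 2.06, SE 0.39, adjusted p = 0.012). The groups did not overlap for either gene, but the 2 are close paralogs and reads could have been split between them. CML10, the 1 of 14 listed calmodulin-like genes that passed, had the highest level of the 69, with 1227, 1143 and 1415 CPM in chp60g sard1 leaves, against 387, 406 and 445 CPM in wild type leaves (log2 fold change 1.61, SE 0.36, adjusted p = 0.029). Of the 69 genes, 20 overlap another annotated locus, CML10 among them.

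Several genes of secretion and of membrane lipids were in the set. EXO70B2, a subunit of the exocyst complex that tethers secretory vesicles, had 35, 30.4 and 32.4 CPM in chp60g sard1 leaves, against 6.53, 6.58 and 9.40 CPM in wild type leaves (log2 fold change 2.13, SE 0.37, adjusted p = 0.0066). A clathrin light chain, AT3G51890, had 32.9, 34.6 and 43.2 CPM in chp60g sard1 leaves, against 13.7, 12.4 and 6.58 CPM in wild type leaves (log2 fold change 1.72, SE 0.30, adjusted p = 0.0066). SYP121, the plasma membrane syntaxin that acts in penetration resistance, rose by 1.44 (adjusted p = 0.025). The phospholipase D genes PLDGAMMA1 and PLDGAMMA3, adjacent paralogs, rose by 1.72 (adjusted p = 0.015) and 1.54 (adjusted p = 0.015), and the phospholipid flippase gene ALA1 by 1.32 (adjusted p = 0.042). AT4G38550, annotated as phospholipase-like, had 264, 165 and 228 CPM in chp60g sard1 leaves, against 92.0, 50.5 and 62.1 CPM in wild type leaves, without overlap (log2 fold change 1.71, SE 0.27, adjusted p = 0.0066).

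Genes annotated as resistance proteins or with a TIR or RPW8 domain gave 4 of the 69, out of 103 tested with a median log2 fold change of 0.38. HR3, a homolog of the RPW8 mildew resistance protein, had 18.8, 20.5 and 16.7 CPM in chp60g sard1 leaves, against 4.57, 3.66 and 1.88 CPM in wild type leaves (log2 fold change 2.44, SE 0.43, adjusted p = 0.0068). ZAR1, a coiled-coil immune receptor, rose by 1.31 (adjusted p = 0.028), and AT5G41750 and AT1G72910, both with a TIR domain, rose by 1.87 (adjusted p = 0.028) and 2.173 (adjusted p = 0.042). The lectin gene AT5G03350 had 861, 645 and 867 CPM in chp60g sard1 leaves, against 161, 143 and 120.3 CPM in wild type leaves (log2 fold change 2.49, SE 0.60, adjusted p = 0.048). AT4G36090, an oxygenase that uses 2-oxoglutarate, rose by 2.29 (adjusted p = 0.015), and the phytochelatin synthase gene listed as CAD1 by 1.48 (adjusted p = 0.015). The cytochrome P450 gene CYP81K2 had the highest fitted fold change of the 69, but wild type leaves held 1 read of it, and the ratio of counts was 23.7 with an exact 95% counting interval of 3.90 to 972.

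**Figure D2:**
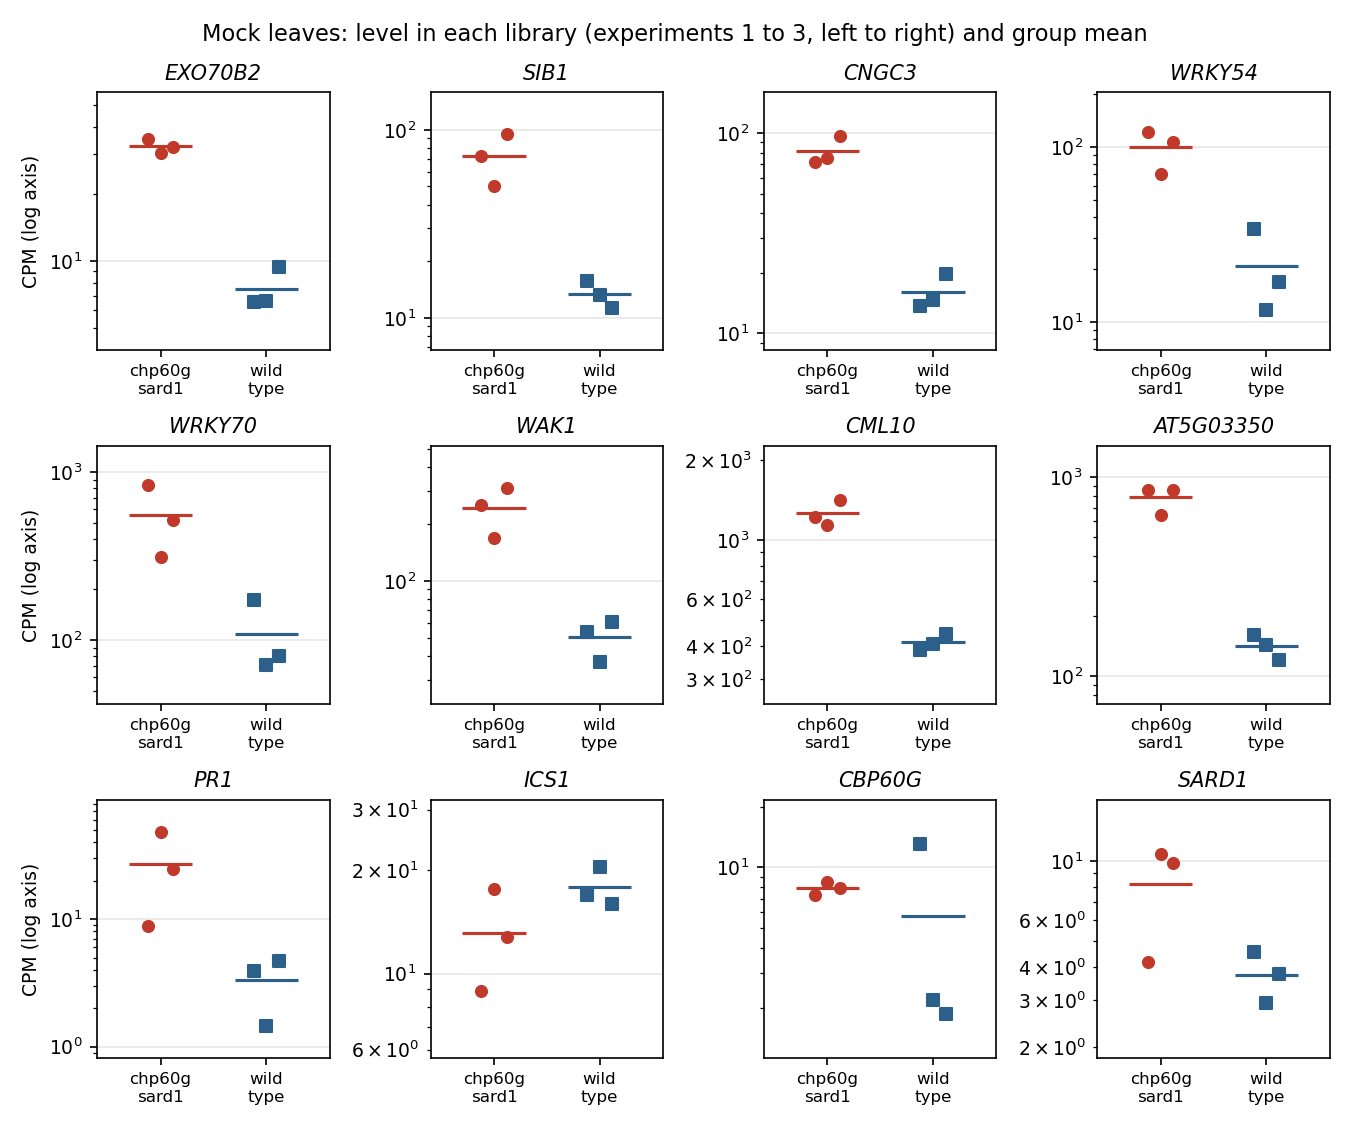
Level of 12 genes in each mock library (CPM, log axis), with chp60g sard1 at the left and wild type at the right of each panel. Points are experiments 1 to 3 from left to right and bars are group means. The 8 genes of the upper 2 rows passed the test and their groups do not overlap, while PR1, ICS1, CBP60G and SARD1 did not pass.

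GC6, a golgin of the Golgi matrix, was the single gene that fell. It had 14.1, 20.5 and 9.82 CPM in chp60g sard1 leaves, against 26.1, 28.5 and 39.5 CPM in wild type leaves, with all chp60g sard1 libraries below all wild type libraries (log2 fold change -1.07, SE 0.22, adjusted p = 0.017), and it overlaps a neighbouring gene. The next genes by p among those lower in all 3 experiments did not pass. RACK1B, listed as RACK1B_AT and a scaffold at the ribosome, had 9.41, 6.36 and 6.88 CPM in chp60g sard1 leaves, against 24.8, 8.78 and 32 CPM in wild type leaves (adjusted p = 0.11). NOA1, a chloroplast GTPase, had a log2 fold change of -0.90 (adjusted p = 0.11), the plastid cysteine synthase gene CS26 -1.80 (adjusted p = 0.12), the chloroplast import component TIC40 -0.69 (adjusted p = 0.15) and the glutamate tRNA synthetase gene listed as ERS -0.81 (adjusted p = 0.15). The sugar transporter gene SWEET2 was at -0.94 (adjusted p = 0.18), AT4G34290 at -1.14 (adjusted p = 0.13), the lipase-like AT1G04985 at -0.72 (adjusted p = 0.13) and the actin-family gene AT2G42170 at -2.38 (adjusted p = 0.14).

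Of 17 tested markers of the salicylic acid response, 1 rose past the threshold and the others did not pass. All 17 had a log2 fold change above 0, with a median of 2.02, against 7451 of 15161 tested genes above 0 and a median of -0.01. Within experiments 1, 2 and 3 the median difference of log2 CPM was 1.12, 1.1 and 2.11. These differences include a prior count of 2, which draws genes with few counts toward 0, so they are not on the scale of the fitted median. The fitted median was 2.08 without the wild type library of experiment 3. WAK1 was the member that passed. Just outside the threshold were PCC1, with 1776, 1262 and 1496 CPM in chp60g sard1 leaves, against 342, 353 and 234 CPM in wild type leaves (log2 fold change 2.3, SE 0.56, adjusted p = 0.053), the glucanase gene BG3 (log2 fold change 2.90, SE 0.73, adjusted p = 0.058) and LURP1, with 574, 372 and 602 CPM in chp60g sard1 leaves, against 74.4, 112 and 57.4 CPM in wild type leaves (log2 fold change 2.66, SE 0.68, adjusted p = 0.068). ACD6, an ankyrin protein whose gain of function raises salicylic acid, had 739.5, 680.0 and 876 CPM in chp60g sard1 leaves, against 182, 205 and 165 CPM in wild type leaves (log2 fold change 2.09, SE 0.74, adjusted p = 0.31). PR1, the most used marker of the response, had 8.89, 48.1 and 24.6 CPM in chp60g sard1 leaves, against 3.92, 1.46 and 4.70 CPM in wild type leaves, with groups that did not overlap, but it did not pass (log2 fold change 3.45, SE 1.42, adjusted p = 0.46). PR2 and PR5, which encode a glucanase and a thaumatin-like protein, were at 0.80 (adjusted p = 0.94) and 0.15 (adjusted p = 1), and the PR5 values of the groups overlapped. Across all tested genes 7.37% had all 3 chp60g sard1 libraries above all wild type libraries, and 5.38% had them all below. For the marker list the number was 10 of 17.

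The genes that make salicylic acid were nearer to the median of all genes. Of 8 tested genes of the synthesis list none passed, 2 were above 0 and the median log2 fold change was -0.25. ICS1 had 8.89, 17.7 and 12.8 CPM in chp60g sard1 leaves, against 17, 20.5 and 16 CPM in wild type leaves (log2 fold change -0.46, SE 0.48, adjusted p = 0.93). EDS5, the exporter of the ICS1 product from the chloroplast, and PBS3, which acts on that product next, were at 0.52 (adjusted p = 0.96) and 0.70 (adjusted p = 0.92), and PAL1 and PAL2 of the phenylalanine route at -0.33 (adjusted p = 0.93) and -0.55 (adjusted p = 0.69). Among the enzymes that modify salicylic acid, the hydroxylase gene DMR6 had 83.2, 58.0 and 92.4 CPM in chp60g sard1 leaves, against 17, 27.1 and 26.3 CPM in wild type leaves, above wild type in every library but not past the threshold (log2 fold change 1.72, SE 0.57, adjusted p = 0.24). The glucosyltransferase gene UGT76B1 had 6 reads in chp60g sard1 leaves and 0 in wild type leaves. The ratio was 1.82 with 3 reads over the wild type group as the floor. This ratio takes the chp60g sard1 reads as exact, so it is not a lower bound. Of the 3 genes of N-hydroxypipecolic acid synthesis, the systemic signal of infected leaves, SARD4 was at 1.27 (adjusted p = 0.35) and ALD1 at 0.20 (adjusted p = 1). FMO1 had 5 reads, all in 1 chp60g sard1 library, and 0 in wild type leaves, a ratio of 1.52 with the same floor. Its fitted log2 fold change was -0.010 without experiment 2. The median of the 3 genes was 1.27, or 0.60 with FMO1 at the ratio from the floor.

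Lists of other immune genes lay above the median of all genes with few members past the threshold. Of 13 defence transcription factors WRKY54 and WRKY70 passed, 12 were above 0 and the median was 1.34, or 1.26 without the wild type library of experiment 3. WRKY38 was at 3.35 (adjusted p = 0.18) and WRKY33, the factor that drives camalexin synthesis, at 1.34 (adjusted p = 0.24). Of 22 immune signalling genes none passed and 20 were above 0 (median 0.45). NIMIN1, an interactor of the salicylic acid receptor NPR1, was at 3.10 (adjusted p = 0.096), NIMIN2 at 2.55 (adjusted p = 0.16), NDR1 at 1.29 (adjusted p = 0.14) and EDS1B at 2.33 (adjusted p = 0.2). Of 26 pattern recognition genes CPK5 passed and 23 were above 0 (median 0.54), with SOBIR1 at 1.5 (adjusted p = 0.14) and the chitin receptor genes LYK5 at 1.25 (adjusted p = 0.15) and CERK1 at 0.98 (adjusted p = 0.22). Of 14 calmodulin-like genes CML10 passed and 13 were above 0 (median 0.70). The 13 chaperone and folding genes of the endoplasmic reticulum were all above 0 and none passed (median 0.50). The calreticulin gene CRT3 was highest by p among them, at 1.01 (adjusted p = 0.43). As differences of log2 CPM with a prior count of 2, which are not fitted fold changes, the list median was 0.23, 0.10 and 0.79 within experiments 1, 2 and 3.

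None of the members of the other hormone and metabolic lists passed. The 32 jasmonate genes had a median of 0.29 with 23 above 0, with the hormone-conjugating enzyme JAR1 at 0.72 (adjusted p = 0.13). Camalexin and tryptophan synthesis (14 genes, 12 above 0) had a median of 0.36, with PAD3, the last enzyme of camalexin synthesis, at 1.71 (adjusted p = 0.83). Indole glucosinolate genes (11, with 9 above 0) had a median of 0.35, aliphatic glucosinolate genes (20, with 9 above 0) of -0.08, abscisic acid and cold genes (18, with 15 above 0) of 0.24, ethylene genes (14, with 7 above 0) of 0.01, senescence genes (10, with 8 above 0) of 0.28 and clock genes (21, with 7 above 0) of -0.16. The 45 nuclear photosynthesis genes had a median of -0.08, with 4 above 0. The 8 reference genes had a median of -0.01.

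**Figure D3:**
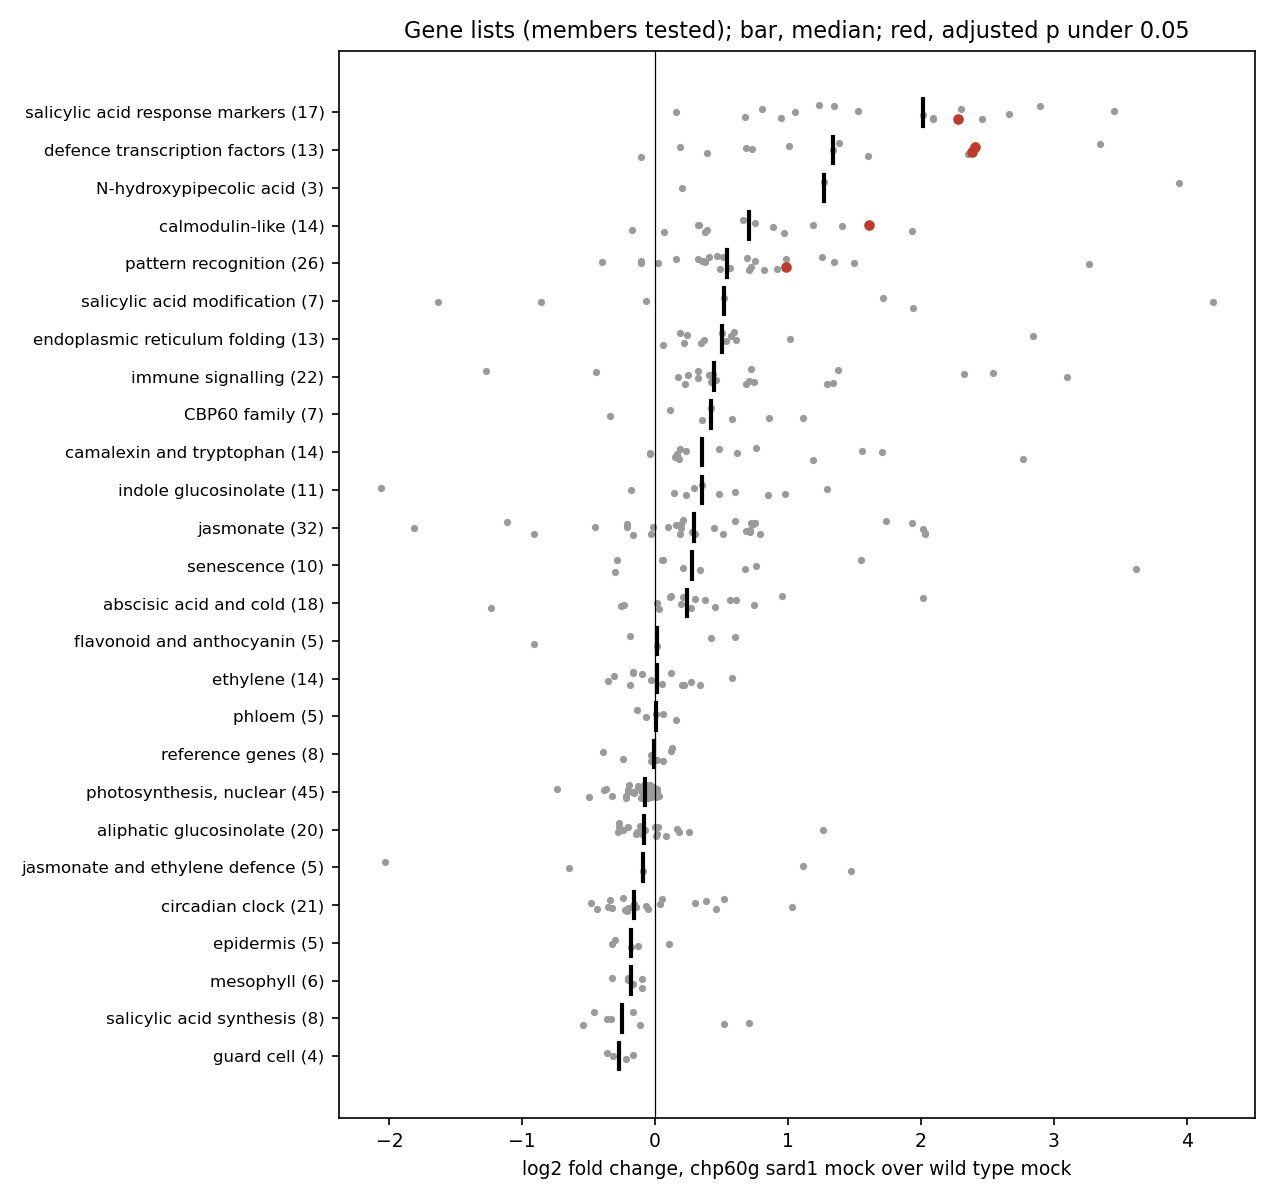
Log2 fold change of chp60g sard1 over wild type in mock leaves for the tested members of each gene list (points, with the number tested in brackets), ordered by list median (black bars), for lists with at least 3 members tested. Red points passed an adjusted p under 0.05. Of the lists drawn, salicylic acid response markers have the highest median, 2.02, and the salicylic acid synthesis list lies below 0 at -0.25.

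Markers of leaf cell types were checked in the same libraries. All 6 mesophyll markers had a log2 fold change below 0 (median -0.18, none passed), and their summed level was 62610.0 to 66343 CPM in chp60g sard1 leaves and 68065 to 78293 CPM in wild type leaves, without overlap. The 4 tested guard cell markers were also below 0 (median -0.27). Their summed levels were 72.8 to 89.4 CPM in chp60g sard1 leaves and 97.3 to 108 CPM in wild type leaves. No single mesophyll or guard cell marker had all chp60g sard1 libraries below all wild type libraries. In the triple mutant, against the same wild type libraries, the medians were -0.24 for mesophyll and -0.39 for guard cells. Summed levels overlapped for the markers of phloem (484 to 626 CPM in chp60g sard1, 446 to 626 CPM in wild type), epidermis (1239.5 to 1808 CPM in chp60g sard1, 1679 to 1787 CPM in wild type), xylem and myrosin cells. Of the flower markers, AP3 and PI were at 0 in all 6 libraries, and AG had 6 reads in chp60g sard1 leaves and 3 in wild type leaves. Of the root markers, NRT2.1 had 4 reads in chp60g sard1 leaves and 1 in wild type leaves. PYK10 had 1 and 0 reads in the same order, and PHT1;1 was not among the counted loci. The part of the mesophyll and guard cell differences in the results was not tested.

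The triple mutant cbp60a cbp60g sard1 carries a mutation of CBP60a as well. In mock leaves it gave 0 genes past the threshold against wild type with edgeR, 15 with DESeq2 and 1073 at an unadjusted p under 0.05. The direct comparison of chp60g sard1 with the triple mutant also gave 0 genes with edgeR, 1 with DESeq2 and 414 at an unadjusted p under 0.05. WRKY70 averaged 557 ± 267 CPM in chp60g sard1, 421 ± 285 CPM in the triple mutant and 108 ± 57.2 CPM in wild type (SD, n = 3 each). WRKY54 averaged 99.6 ± 26.7 CPM in chp60g sard1, 64.3 ± 47.4 CPM in the triple mutant and 20.9 ± 11.6 CPM in wild type (SD, n = 3 each). Against the same wild type libraries, the triple mutant's fold changes were 1.94 (adjusted p = 0.22) for WRKY70 and 1.56 (adjusted p = 0.27) for WRKY54 with edgeR. Over the 69 genes the triple mutant's median was 1.35, against 0.02 over all genes, and none of them passed. Since wild type libraries are shared, this median is no separate evidence.

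The sid2 mutant carries a mutation of ICS1. Set against sid2, chp60g sard1 leaves had 59 genes past the threshold (0.389%), all higher in chp60g sard1, against 2 genes (0.0132%), both lower in sid2, in the comparison of sid2 with wild type (743 at an unadjusted p under 0.05), a count that was 0 without experiment 2 and 1 without experiment 3. The 69 genes had a median log2 fold change of 0.38 in sid2 over wild type, against 0.00 over all genes, and 0 of them passed. That comparison shares the wild type libraries, and the comparison with sid2 shares the chp60g sard1 libraries. Of the 17 salicylic acid response markers 3 were among the 59, with a list median of 2.35, against -0.01 over all genes. The markers were WAK1 (log2 fold change 2.57, SE 0.53, adjusted p = 0.018), BG3 (log2 fold change 4.29, SE 0.81, adjusted p = 0.0084) and LURP1 (log2 fold change 3.07, SE 0.69, adjusted p = 0.037). WRKY54 differed as well (log2 fold change 2.39, SE 0.45, adjusted p = 0.0084), whereas WRKY70 averaged 228 ± 211 CPM in sid2 and did not pass (log2 fold change 1.48, SE 0.51, adjusted p = 0.29). ICS1, the gene mutated in sid2, was at 13.1 ± 4.40 CPM in chp60g sard1 and 1.25 ± 1.11 CPM in sid2 (SD, n = 3 each; edgeR log2 fold change 3.32, SE 0.69, adjusted p = 0.018). Without experiment 2 or without experiment 3 the count of 59 was 0. In experiment 3 the plastid share was 7.09% in the chp60g sard1 and 5.46% in the sid2 mock library. The shares were 5.09% and 5.34% in experiment 1 and 4.83% and 4.68% in experiment 2. The experiment block does not account for a difference within an experiment, and its part in the count was not tested.

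The wild type libraries were low for the 69 genes relative to most other mock genotypes, which include cbp60a, the double mutant cml46 cml47 of calmodulin-like genes and wrky70. Levels are given here as log2 CPM with a prior count of 2, as the median over the 69 genes in each library. They were 5.05 to 5.63 in chp60g sard1, 4.32 to 5.42 in the triple mutant, 4.82 to 5.12 in cml46 cml47, 4.05 to 5.87 in cbp60a, 3.99 to 4.41 in wrky70, 3.60 to 4.67 in sid2 and 3.65 to 3.91 in wild type. The wild type range overlapped that of sid2 alone, and every library of the other 5 genotypes was above it. By group mean, wild type was the lowest of the 7 genotypes for 51 of the 69 genes and chp60g sard1 the highest for 57, both of which the choice of the genes favours. CNGC3 averaged 81.5 ± 13.8 CPM in chp60g sard1, 68.6 ± 13.4 CPM in cml46 cml47, 55.2 ± 39.7 CPM in cbp60a and 16 ± 3.25 CPM in wild type (SD, n = 3 each). Levels of these genes above the 3 wild type libraries were thus not limited to chp60g sard1. The genes were chosen against the same wild type libraries, which favours levels above them in every other genotype. The differences of cbp60a, cml46 cml47 and wrky70 from wild type were not tested here.

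The triple mutant and sid2 share no library with chp60g sard1 or wild type, and their direct comparison therefore gives a reading of the 69 genes from other leaves of the same experiments. This comparison was added after the results above were known. It holds no wild type library, so it cannot tell a higher level in the triple mutant from a lower level in sid2. The 69 genes were read in the same libraries and are not separate samples. In experiment 3 the plastid share was 7.01% in the triple mutant and 5.46% in the sid2 mock library. The experiment block does not account for such a difference, and its part in the values was not tested. Of the 69 genes 68 were higher in the triple mutant than in sid2, with a median log2 fold change of 0.87, against 7851 of 15161 tested genes and a median of 0.01. None of the 69 passed the threshold there, where 1 of all genes did (0.0066%) and 0 did without experiment 2 or 3. The values were 2.02 (adjusted p = 0.14) for CNGC3, 2.13 (adjusted p = 0.17) for WAK1, 1.57 (adjusted p = 0.24) for SIB1 and 1.57 (adjusted p = 0.29) for WRKY54.

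In Pma leaves, which are other libraries of the same 2 genotypes, 1347 genes were higher in chp60g sard1 (8.88%) and 639 lower (4.21%), 1986 in all (13.1%), against 771 without experiment 2 and 506 without experiment 3. Of the 69 genes higher in chp60g sard1 mock leaves, 0 were called higher and 3 called lower after Pma, with a median of -0.36 against 0.06 over all genes. The 3 were ORP1A, an oxysterol-binding protein, at -1.85 (adjusted p = 0.0044), the uncharacterized AT5G08760 at -1.21 (adjusted p = 0.029) and MEKK3 at -0.91 (adjusted p = 0.031). WRKY70 averaged 1113 ± 570.0 CPM in chp60g sard1 and 1823 ± 166 CPM in wild type after Pma (SD, n = 3 each; edgeR log2 fold change -0.85, SE 0.49, adjusted p = 0.29). The difference between its Pma and mock fold changes was tested itself (log2 fold change -3.25, SE 0.72, adjusted p = 0.0064). The mock fold change that placed WRKY70 among the 69 genes is part of that difference, so the interaction test is no separate evidence for it. Of all genes, 6.81% passed that interaction test, 3.62% with a higher and 3.19% with a lower value after Pma. The median of the salicylic acid response markers was -1.19 after Pma, with 5 of 17 called lower and 0 called higher. The nuclear photosynthesis genes, near 0 in mock leaves, had a median of 1.56 after Pma with 41 of 45 called higher.

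**Figure D4:**
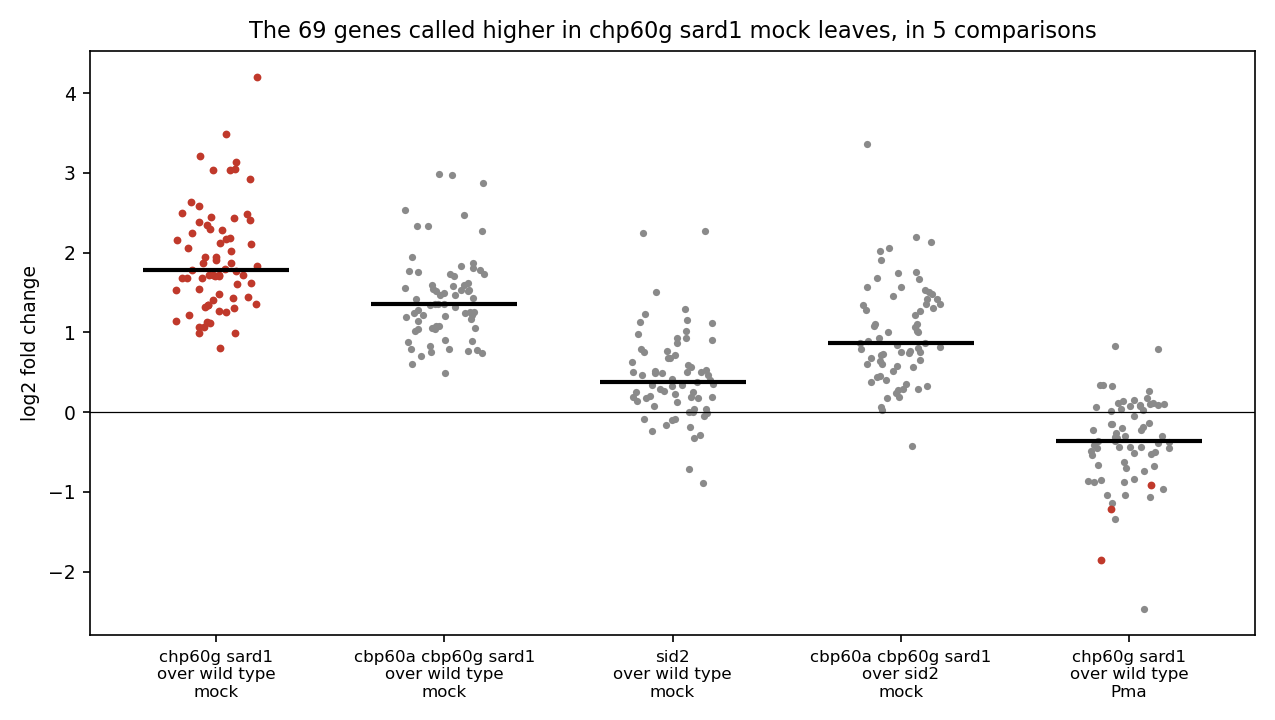
Log2 fold change of the 69 genes called higher in chp60g sard1 mock leaves (points) in 5 comparisons, each named as the first genotype over the second, with medians as black bars and red points for an adjusted p under 0.05. The first column chose the genes, and those against the same wild type libraries share them with it. The comparisons of the triple mutant with sid2 and of Pma leaves use other libraries and have medians of 0.87 and -0.36.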

How the data were processed

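The deposited table holds whole-number counts per locus, raw and not normalized, for 42 Smart-3SEQ libraries, which read the 3′ ends of polyadenylated RNA. Per the submitters' processing notes, reads were handled with bcl2fastq 2.17.1.14 and STAR 2.4.2a on TAIR10. The counting tool, its strand setting and the use of molecular identifiers are not given in the sources used here. PCR copies may therefore be among the counts. Intervals cover counting error only, and floors cover that of the wild type group only. Of 24843 loci, 164 had no count and 24697 matched the TAIR10.1 annotation used for names and coordinates.

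Counts were fitted with edgeR 4.0.16 (R 4.3.3) in 1 model of 14 groups with the experiment as a block (26 residual degrees of freedom), TMM factors and filterByExpr (minimum count 10, minimum total 15), which left 15161 genes. Genes were called at a Benjamini-Hochberg adjusted p under 0.05, in the quasi-likelihood test. CPM used the same factors. DESeq2 1.42.0 served as an alternative, with other factors, no filter, no block, fewer libraries in the fit and each experiment or library left out. The fit was also run on simulated counts with known changes. These held no effect of the experiment or of single libraries, so the run is no check of the calls made here. The series' design text places 1 sample of each group in each experiment. Deviations from the group means correlated at 0.51, 0.54 and 0.26 within experiments and at -0.43 to -0.06 between them, so the experiment was kept as the pairing. Counts of replicates differed by more than sampling noise (chi-square per degree of freedom 3.82 to 10.2 over 6 pairs).

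Named were the CBP60 genes, PR1, PR2, PR5, ICS1, FMO1, ALD1 and PAD3, the 15 rises and up to 15 falls of lowest p with at least 5 CPM and 1 direction in 3 experiments (filled to 10 falls with genes that did not pass), and, from the lists, up to 4 members of lowest p each. Other called genes were named for their annotated role after their values were seen. The groups, members and gene lists were chosen with earlier results of these data known. Figures were drawn with matplotlib 3.10.9.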

Additional observations from a re-analysis of the deposited data

Results flagged for a closer look

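The fold change of chp60g sard1 over wild type differed between Pma and mock leaves for 5 of the genes named throughout, by the edgeR interaction term with an adjusted p over all 15161 genes. The comparison was added after the mock results were seen. For CBP60G the difference of the log2 fold changes, Pma minus mock, was -3.14 (adjusted p = 0.0061) and for SARD1 -5.73 (adjusted p = 6.53e-04), both of them the mutated genes. For ICS1 it was -2.82 (adjusted p = 0.0074), with 53.8 ± 3.80 CPM in chp60g sard1 and 542 ± 203 CPM in wild type after Pma (SD, n = 3 each). For PR1 it was -9.997 (adjusted p = 0.0016), with 103 ± 127 CPM in chp60g sard1 and 6247 ± 1552 CPM in wild type after Pma (SD, n = 3 each). For CBP60B, a relative of both factors, it was -1.23 (adjusted p = 0.0097). In mock leaves none of these 5 genes passed.

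ICS1 also differed between the chp60g sard1 and sid2 effects in mock leaves, by 3.32 on the log2 scale in chp60g sard1 over sid2 (edgeR adjusted p = 0.018). ICS1 is the gene mutated in sid2.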

How the results depend on the processing

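The main count of 70 genes in chp60g sard1 mock against wild type mock was 51 with relative log expression factors, 61 with no filter on low counts and 102 with DESeq2. It was 132 with the 21 mock libraries alone, of which 62 were among the 70. With the 6 libraries alone it was 895 (524 higher, 371 lower) with the replicate block and 39 without it. In the fit of all libraries without the replicate block it was 10. Leaving out an experiment or a library gave 0 to 48. All 70 kept their direction wherever they were tested under these alternatives. The groups did not overlap in the 69 genes called higher or in GC6, which favours a kept direction. The kept direction is therefore no check of the calls. The triple mutant against wild type gave 15 with DESeq2 and 13 with mock libraries alone. For sid2 against wild type the count was 21 with mock libraries alone and 0 to 2 on leaving out an experiment. For chp60g sard1 against the triple mutant it was 1 with DESeq2 and 1 with mock libraries alone. For chp60g sard1 against sid2 it was 23 without the replicate block, 113 with mock libraries alone and 0 to 68 on leaving out an experiment. For the triple mutant against sid2 it was 2 with no filter, 14 with DESeq2, 11 with mock libraries alone and 0 to 1 on leaving out an experiment. Pma leaves gave 1171 without the replicate block and 506 to 1897 on leaving out an experiment.

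Leaving out an experiment or a library turned the sign of some mock fold changes that had not passed. CBP60D ranged from -0.13 (without experiment 1) to 1.84, CBP60G from -0.026 (without experiment 2) to 1.95 and FMO1 from -0.010 (without experiment 2) to 4.66. PR5 was at -0.15 without experiment 3, -0.90 without its chp60g sard1 library, -0.20 without the wild type library of experiment 2 and at most 0.90. ALD1 was at -3.46 without experiment 2, -3.68 without its chp60g sard1 library, -0.32 without the wild type library of experiment 1 and at most 1.08. The Pma minus mock difference ranged from -0.0011 (without experiment 1) to 0.37 for CBP60A, from -0.17 (without experiment 1) to 0.16 for CBP60C, with -0.015 without the replicate block, and from -1.94 to 1.43 (without experiment 2) for ALD1. The causes were not tested. At these depths FMO1 and ALD1 rest on under 10 reads in mock leaves.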

Other observations

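Genes of immune perception and salicylic acid turnover were among the 59 genes higher in chp60g sard1 mock leaves than in sid2 mock leaves, beside those named above. These genes were chosen after their values were seen. DMR6, the salicylic acid hydroxylase gene, had 83.2, 58.0 and 92.4 CPM in chp60g sard1 leaves, against 14.2, 3.62 and 8.90 CPM in sid2 leaves (edgeR log2 fold change 3.22, SE 0.62, adjusted p = 0.011). EDS1B, a copy of the immune regulator EDS1, had 21.4, 13.4 and 26.5 CPM in chp60g sard1 leaves, against 2.13, 0 and 0.809 CPM in sid2 leaves (adjusted p = 0.022). EDS1B has a near-identical neighbouring copy, and reads could have been split between them. In both genes every chp60g sard1 library lay above every sid2 library. The immune receptor gene RPS2 differed by 2.05 (adjusted p = 0.034) and SUMO3, a small ubiquitin-like modifier known to be induced by salicylic acid, by 2.90 (adjusted p = 0.045).

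The uncharacterized locus AT1G75945 had 7.32, 14.8 and 15.7 CPM in chp60g sard1 leaves, 13.4, 10.1 and 9.37 CPM in the triple mutant and 13.7, 11.7 and 15.04 CPM in wild type leaves. It had 0 reads in the 3 sid2 mock libraries, and it was the gene with the lowest p in each comparison with sid2 (adjusted p = 2.2e-05 for chp60g sard1 over sid2). No explanation was tested.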
